A study of Mus musculus with 12 samples.

Results

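The genes of the IL-4 receptor, its Janus kinases, the transcription factor STAT6 and the pathway's feedback inhibitors were followed as a set of 10 among the 52636 genes of the deposited count table. The set holds Il4ra, Il2rg, Il13ra1, Jak1, Jak3, Tyk2, Stat6, Socs3, Cish and Socs1. They were chosen by gene symbol, each symbol belonged to 1 Ensembl gene, and all 10 passed the filter on low counts that left 16679 genes for testing.

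Interleukin-4 binds the IL-4 receptor alpha chain. Paired with the common gamma chain, which carries JAK3, it forms the type I receptor of blood cells, and paired with the IL-13 receptor alpha 1 chain, which carries TYK2 or JAK2, it forms the type II receptor that also answers interleukin-13. JAK1 sits on the alpha chain itself. The kinases phosphorylate STAT6, which enters the nucleus and turns on the genes of alternative macrophage activation, a state linked in the lung to repair and fibrosis. SOCS1, SOCS3 and CISH are made in response to STAT signals and block cytokine receptors or their kinases in turn.

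Bulk RNA was sequenced from mouse lung cells described in the series title as Cx3cr1+ macrophages, Cx3cr1 being the fractalkine receptor. Bleomycin, a drug that damages lung epithelium and serves as the common mouse model of lung fibrosis, had been given to 2 groups, labelled IL4Ra KO (bleomycin KO, 4 libraries) and IL4Ra WT (bleomycin WT, 4 libraries), and saline to a group labelled IL4Ra WT (saline WT, 4 libraries). The strain, age, dose, time after treatment, sorting gate, and the way the deletion was made or which cells carry it are not stated in the labels. No saline group labelled KO is among the 12 libraries. Bleomycin KO and saline WT therefore differ in both treatment and genotype label, and the 2 cannot be told apart in that comparison. The design text deposited with the series concerns cultured epithelial cells in place of these macrophages, so the groups were taken from the sample labels and the series title alone. Whether each library is a separate animal is not stated either, and every p-value below speaks only to the variation among these 12 libraries, part or all of which may be technical.

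Total counts ran from 8514384 to 16842991 in bleomycin KO, from 9600870 to 18051113 in bleomycin WT and from 60598 to 10168525 in saline WT. The shallow library is saline WT 2, with 4830 genes detected, where the remaining 11 held 17835 to 30283, and its 3 counts of a gene make 32.4 CPM (counts normalised for library size, here with TMM scaling). Bleomycin WT 4 also stood apart, with a TMM factor of 0.579 and a highest Spearman correlation with any other library of 0.730; that of saline WT 1 was 0.658 and that of saline WT 2 was 0.498. Results are therefore given for all 12 libraries and for the 10 that remain without saline WT 2 and bleomycin WT 4, a pair chosen with earlier results of these data known. Saline WT 1 was kept in the 10, although its correlation is below that of bleomycin WT 4, and without it alone the log2 fold change of Socs3, the member called below, was 1.67 for bleomycin KO against saline WT (adjusted p = 0.3474) and 1.55 for bleomycin WT against saline WT (adjusted p = 0.3051; edgeR). All 10 macrophage markers were detected in every library except that Mertk was at 0 in saline WT 2. Their summed level was 47466 to 68188 CPM in bleomycin KO, 28677 to 50866 in bleomycin WT and 14290 to 33937 in saline WT, led by Lyz2 and C1qb. Cx3cr1 itself had 86.2 to 121 CPM in bleomycin KO, 7.46 to 113 in bleomycin WT, lowest in bleomycin WT 4, and 98.1 to 940.4 in saline WT, highest in saline WT 2.

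The promoters of the 3 feedback inhibitors are shown because STAT factors are known to induce these genes and because Socs3 and Cish had the smallest p among the members in both comparisons of bleomycin with saline. Each sequence is the 250 bases before the RefSeq start of the gene (GRCm38.p6), written on the gene's strand. In Socs3 the capitals mark the motif TTCNNNGAA, the core bound by most STAT dimers, and in Socs1 they mark 2 overlapping copies of a core of interferon-response elements, GAAA and GAAA with 2 bases between them, that was searched for after the Socs1 window had been read.
Socs3, chr11:117969367-117969616, minus strand: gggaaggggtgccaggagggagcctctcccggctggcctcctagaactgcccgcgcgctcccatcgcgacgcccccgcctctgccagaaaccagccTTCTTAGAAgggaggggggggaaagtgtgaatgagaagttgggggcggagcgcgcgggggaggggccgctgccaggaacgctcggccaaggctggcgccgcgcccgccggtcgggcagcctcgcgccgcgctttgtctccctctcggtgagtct
Socs1, chr16:10785537-10785786, minus strand: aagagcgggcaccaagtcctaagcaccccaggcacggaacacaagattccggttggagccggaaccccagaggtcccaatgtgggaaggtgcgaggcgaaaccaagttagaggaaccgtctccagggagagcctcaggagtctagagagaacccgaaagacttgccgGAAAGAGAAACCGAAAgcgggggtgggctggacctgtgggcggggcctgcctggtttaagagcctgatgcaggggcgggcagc
Cish, chr9:107296409-107296658, plus strand: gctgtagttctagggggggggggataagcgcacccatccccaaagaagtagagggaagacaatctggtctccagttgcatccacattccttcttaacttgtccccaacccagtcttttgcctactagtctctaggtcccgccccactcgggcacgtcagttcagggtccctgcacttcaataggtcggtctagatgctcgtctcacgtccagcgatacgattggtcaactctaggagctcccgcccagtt

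The Socs3 match, TTCTTAGAA, starts 154 bases before the RefSeq start. Among the 10 members, Socs3 alone held TTCNNNGAA in this window, which 7.02% of 32851 RefSeq promoter windows of the same length hold. The Socs3 and Cish windows lie inside the GENCODE coordinates of these genes, so the bases before their GENCODE starts were not searched. The wider spacing that STAT6 prefers, TTC and GAA with 4 bases of any kind between them, was in 0 of the 10 windows and in 5.85% of all windows. The interferon-response core, with both strands searched, was in Socs1 alone, at 83 and 77 bases before the start, and in 2.98% of all windows. The match positions describe letters in a window and nothing about binding.

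Il4ra was counted in every library, with a mean of 332 CPM over the libraries labelled KO and 355 CPM over bleomycin WT. Il4ra (ENSMUSG00000030748, chr7:125552120-125579474, plus strand, GRCm38, 5256 exonic bases) encodes the chain that binds interleukin-4. Its level was 473, 277, 235 and 343 CPM in bleomycin KO 1 to 4, against 351, 626, 302 and 138 CPM in bleomycin WT 1 to 4 and 111, 32.4, 262 and 302 CPM in saline WT 1 to 4. The bleomycin KO libraries lay inside the range of bleomycin WT, and the highest and lowest bleomycin WT libraries were numbers 2 and 4. The value of saline WT 2 rests on 3 counts.

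Group means of Il4ra were 332 ± 104 CPM for bleomycin KO, 355 ± 203 for bleomycin WT and 177 ± 127 for saline WT (SD, n = 4 each). For bleomycin KO against bleomycin WT the log2 fold change of Il4ra was -0.09, with a 95% interval of -1.33 to 1.15 and an adjusted p of 0.9998 (edgeR quasi-likelihood test, Benjamini-Hochberg over all genes). An exact two-sided permutation test of mean log2 CPM gave a difference of 0.05 and p = 0.9429, and the 2 estimates have opposite signs. Counts are summed over the 11 merged exons of the gene in the deposited table, so a transcript that lacks only some exons would still be counted, and the labels do not say which exons the deletion removes. The total therefore checks the genotype label only for a deletion that removes most of the transcript.

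Against saline WT the Il4ra estimates were further from 0 but did not pass the test. For bleomycin WT against saline WT the log2 fold change was 0.96 (SE 0.59, 95% interval -0.29 to 2.22, adjusted p = 0.4572, edgeR), and for bleomycin KO against saline WT it was 0.87 (adjusted p = 0.7148, edgeR). The exact permutation test gave p = 0.1429 for each, where 4 against 4 libraries can reach 0.0286. In the 10 libraries every bleomycin WT library lay above every saline WT library, with means of 426 ± 170 and 227 ± 98.1 CPM (SD, n = 3 each), as did 10.9% of 18812 genes. There the log2 fold change of Il4ra was 0.91, with an interval of 0.02 to 1.79, an unadjusted p of 0.0451 and an adjusted p of 0.3459 (edgeR). The comparisons with saline WT share those 4 libraries, and the comparisons that involve bleomycin WT share that group, so their values are not independent of each other. Il4ra overlaps the antisense gene Gm44876, which has 315 counts in the table against 41058.

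Il2rg (ENSMUSG00000031304, chrX:101264378-101268255, minus strand) encodes the common gamma chain, which the receptors of interleukins 2, 7, 9, 15 and 21 use as well. Its level was 176, 200.03, 260.0 and 170.3 CPM in bleomycin KO, against 168, 177, 213 and 160.5 CPM in bleomycin WT and 159, 21.6, 147 and 143 CPM in saline WT. All 8 bleomycin libraries lay above all 4 saline WT libraries, and the gap stayed with saline WT 2, which held 2 Il2rg counts, left out. Among all genes, 4.93% had every bleomycin WT library above every saline WT library, and 8.17% every bleomycin KO library. The distance is small: the lowest bleomycin library had 160.5 CPM and the highest saline library had 159 CPM. The log2 fold change was 0.56 for bleomycin WT against saline WT (adjusted p = 0.624), 0.72 for bleomycin KO against saline WT (adjusted p = 0.7148) and 0.17 for bleomycin KO against bleomycin WT (adjusted p = 0.9998; edgeR). In the 10 libraries these values were 0.29 (adjusted p = 0.5621), 0.42 (adjusted p = 0.3332) and 0.12 (adjusted p = 0.9999; edgeR) in the same order.

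Il13ra1 (ENSMUSG00000017057, chrX:36112110-36171259, plus strand), the chain that makes the receptor answer interleukin-13, had the widest spread of the receptor genes within saline WT. It stood at 214, 176, 226 and 152 CPM in bleomycin KO, against 178, 174, 154 and 355 CPM in bleomycin WT and 101, 21.6, 449.6 and 377 CPM in saline WT. Saline WT 3 and 4 and bleomycin WT 4 were above the remaining 9 libraries, and the groups overlapped in every comparison. Its log2 fold change was -0.18 for bleomycin WT against saline WT (adjusted p = 0.9313), and in the 10 libraries it was -0.88, with an interval of -1.81 to 0.04 and an adjusted p of 0.3716 (edgeR). For bleomycin KO against saline WT it was -0.34 in all 12 libraries (adjusted p = 0.9139) and -0.69 in the 10 (adjusted p = 0.3912; edgeR).

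Compared per kilobase of exon, which allows levels to be set between genes, Il2rg led the receptor chains. Its mean was 121 CPM per kb in bleomycin KO, 108 in bleomycin WT and 70.4 in saline WT, against 63.2, 67.5 and 33.6 CPM per kb for Il4ra in the same 3 groups. Il2rg was above Il4ra in 11 of 12 libraries, bleomycin WT 2 being the exception. Il4ra and Il13ra1 were close: Il4ra was the higher in 3 of 4 bleomycin KO, 3 of 4 bleomycin WT and 1 of 4 saline WT libraries.

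The balance between the second chains of the type I and type II receptors was also read within each library, where library size cancels. The ratio of Il2rg to Il13ra1 counts per kb was 1.83, 2.53, 2.56 and 2.49 in bleomycin KO, 2.10, 2.26, 3.08 and 1.0 in bleomycin WT and 3.48, 2.22, 0.726 and 0.842 in saline WT. Il2rg therefore exceeded Il13ra1 in all 4 bleomycin KO and all 4 bleomycin WT libraries but in 2 of 4 saline WT libraries, and the ratio of saline WT 2 compares 2 counts with 2. Ranges overlapped, and the ratio is a description with no test.

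Jak1 (ENSMUSG00000028530, chr4:101152367-101265282, minus strand), the kinase of the alpha chain, had log2 fold changes near 0 in all 3 comparisons. Its level was 533, 463, 444 and 339 CPM in bleomycin KO, against 417, 574, 493 and 287 CPM in bleomycin WT and 341, 303, 588 and 462 CPM in saline WT. The 3 ranges nearly coincided, and the fold changes on the log2 scale were 0.06 for bleomycin WT against saline WT, 0.06 for bleomycin KO against saline WT and 0.01 for bleomycin KO against bleomycin WT. The first of these has a 95% interval of -0.77 to 0.88 and an adjusted p of 0.9684 (edgeR), and its sign and that of bleomycin KO against saline WT turn under RLE scaling.

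Jak3 (ENSMUSG00000031805, chr8:71676296-71690575, plus strand), the kinase of the gamma chain, had 95.1, 79.0, 45.6 and 48.9 CPM in bleomycin KO, against 52.2, 136, 60.4 and 3.55 CPM in bleomycin WT and 55.2, 0, 36.0 and 80.5 CPM in saline WT. Bleomycin WT 4 was lowest among the libraries with a count, and the groups overlapped. The log2 fold change was 0.43 for bleomycin WT against saline WT and 0.52 for bleomycin KO against saline WT (adjusted p = 0.8548 and 0.8944, edgeR).

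Tyk2 (ENSMUSG00000032175, chr9:21104068-21131243, minus strand), a kinase of the IL-13 receptor alpha 1 chain that interferon and IL-12 receptors use too, had 150, 68.8, 61.4 and 79.3 CPM in bleomycin KO, against 59.6, 202, 71.0 and 70.2 CPM in bleomycin WT and 6.57, 0, 86.4 and 49.8 CPM in saline WT. Saline WT 1 and 2 were low and saline WT 3 was among the bleomycin libraries, so the groups overlapped. Its log2 fold change was the largest of the kinase members, 1.35 for bleomycin WT against saline WT (95% interval -0.31 to 3.0, adjusted p = 0.4287) and 1.18 for bleomycin KO against saline WT (adjusted p = 0.7069; edgeR). With 1 library left out at a time, the first ran from 0.78 without bleomycin WT 2 to 2.28 without saline WT 3, and the second from 0.82 without saline WT 1 to 2.10 without saline WT 3. Overlapping genes took few reads beside these kinases: Raver2, opposite Jak1, has 353 counts in the table against 55728, and Insl3, on the strand of Jak3, has 32 against 8359. In saline WT 2 the 0 counts of Jak3, Tyk2 and Socs1 each allow a level of up to 32.4 CPM, a limit that covers counting error only.

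Per kilobase, Jak1 was the most abundant of the Janus kinase members. It averaged 90.6 CPM per kb in bleomycin KO, 90.2 in bleomycin WT and 86.3 in saline WT, while Jak3 averaged 15.03, 14.1 and 9.61 and Tyk2 averaged 16.2, 18.1 and 6.42 CPM per kb in the same groups. Jak1 exceeded both in all 12 libraries. Jak3 and Tyk2 were not separated from each other, Jak3 being the higher in 5 of 12. Jak2, which is not among the 10 but serves the same IL-13 receptor chain, was below Jak1 in 11 libraries. It had 95.4, 78.1, 71.2 and 62.7 CPM in bleomycin KO, against 106, 64.3, 71.7 and 396 CPM in bleomycin WT and 85.1, 32.4, 49.7 and 22.7 CPM in saline WT, so that its mean in bleomycin WT rests on library 4, the only one in which Jak2 exceeded Jak1.

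**Figure D1:**
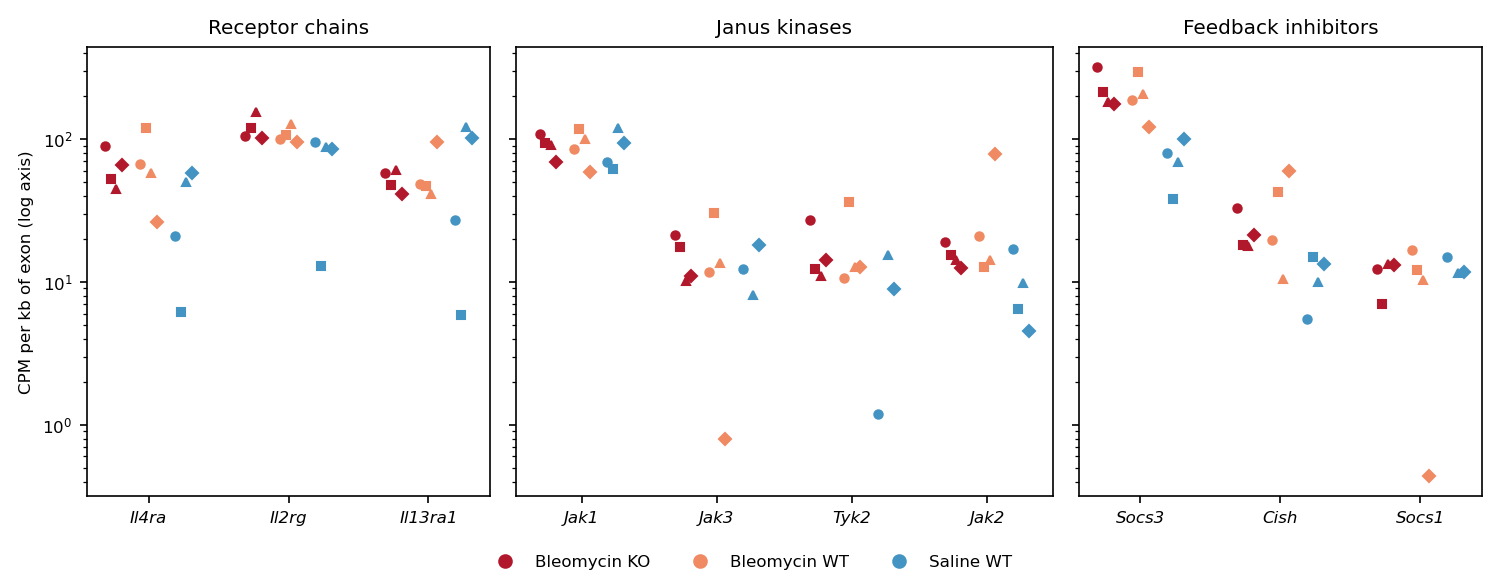
Level in CPM per kb of exon (vertical log axis) of each receptor chain, Janus kinase and feedback inhibitor, 1 point per library, with bleomycin KO left, bleomycin WT centre and saline WT right at each gene and Jak2 added for comparison. Libraries at 0 (Jak3, Tyk2 and Socs1 in saline WT 2) cannot be drawn on a log axis. Jak1 lies above Jak3 and Tyk2 in all 12 libraries, and Socs3 above Cish and Socs1 in all 12.

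Stat6 (ENSMUSG00000002147, chr10:127642986-127660957, plus strand), the transcription factor that carries the interleukin-4 signal, was counted in every library, with its highest mean in saline WT and no call. Its level was 333, 309, 215 and 229.8 CPM in bleomycin KO, against 227, 394, 213 and 38.4 CPM in bleomycin WT and 394, 205, 373 and 300.4 CPM in saline WT. Bleomycin WT 4 was far below every other library and the remaining ranges overlapped. The log2 fold change was -0.56 for bleomycin WT against saline WT (95% interval -1.71 to 0.60, adjusted p = 0.6647), -0.24 for bleomycin KO against saline WT (adjusted p = 0.937) and 0.32 for bleomycin KO against bleomycin WT (adjusted p = 0.9998; edgeR). The last value turned to -0.02 in the 10 libraries, with an interval of -0.59 to 0.54. Stat6 shares exonic sequence with Nab2 on the opposite strand, which has 6162 counts in the table against 33619 for Stat6, and the library kit does not mark strand.

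In all 12 libraries the largest log2 fold change of a member against saline WT was that of a feedback inhibitor, Cish for bleomycin WT and Socs3 for bleomycin KO, and in the 10 libraries it was that of Socs3 in both. Socs3 (ENSMUSG00000053113, chr11:117966079-117970047, minus strand, 2552 exonic bases) encodes an inhibitor that binds gp130-type receptors and their Janus kinases, and it is induced by STAT3 as well as by other signals. Its level was 810.0, 544, 466 and 446 CPM in bleomycin KO, against 477, 757, 528 and 308 CPM in bleomycin WT and 203, 97.3, 176 and 254 CPM in saline WT. Each of the 8 bleomycin libraries was above each of the 4 saline libraries, and the 2 bleomycin groups overlapped. The share of all genes so separated from saline WT was 4.93% for bleomycin WT and 8.17% for bleomycin KO.

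Mean Socs3 was 566 ± 168 CPM for bleomycin KO, 518 ± 185 for bleomycin WT and 183 ± 65.4 for saline WT (SD, n = 4 each). In all 12 libraries the log2 fold change was 1.61 for bleomycin KO against saline WT (SE 0.44, 95% interval 0.69 to 2.53, unadjusted p = 0.001922, adjusted p = 0.2325) and 1.48 for bleomycin WT against saline WT (SE 0.43, interval 0.56 to 2.40, unadjusted p = 0.003532, adjusted p = 0.2187; edgeR). Neither passed the threshold of 0.05 over 16679 genes. Between the genotypes the log2 fold change was 0.13, with an interval of -0.77 to 1.03 and an adjusted p of 0.9998 (edgeR).

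Without saline WT 2 and bleomycin WT 4, Socs3 rose in bleomycin KO. Its mean was 569 ± 159 CPM in bleomycin KO (n = 4) and 215 ± 39.0 CPM in saline WT (n = 3), a log2 fold change of 1.41 (SE 0.26, interval 0.83 to 1.98, adjusted p = 0.0473, edgeR), in a fit that called 0.377% of genes as higher. For bleomycin WT the mean was 587 ± 142 CPM against 215 ± 39.0 CPM in saline WT (n = 3 each), a log2 fold change of 1.45 with an adjusted p of 0.05425 (edgeR), just short of the threshold, where 0.287% of genes were called as higher. DESeq2 on all 12 libraries also called Socs3 in bleomycin KO against saline WT, at a log2 fold change of 1.41 and an adjusted p of 0.04664, in a test that called 0.487% of genes as higher. Both calls lie close to the threshold. With any 1 library left out the lowest adjusted p was 0.0933, and over 19 alternatives the adjusted p of this comparison ran from 0.04664 to 0.6787.

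Other transcripts also differed from saline WT beside Socs3, and their part in the result was not tested. The 12 neutrophil markers were led by S100a9 and S100a8. Their summed level was 1232 to 2007 CPM in bleomycin KO, 569 to 1675 in bleomycin WT and 2691 to 30121 in saline WT. The neutrophil-defining Ly6g had a mean of 30.1 CPM over saline WT (highest library 76.4). Its mean was 1.89 CPM over bleomycin KO (highest 3.56) and 0.948 over bleomycin WT (highest 1.42). Ly6g was at 0 in 1 bleomycin KO, 1 bleomycin WT and 2 saline WT libraries, the shallow saline WT 2 among them. Of the 12, 0 passed the edgeR test in 12 libraries, and 11 were lower at an unadjusted p under 0.05 in bleomycin KO, where 6.07% of all genes were lower than in saline WT, and 11 in bleomycin WT, where 6.19% were. DESeq2 called 7 of them lower in bleomycin KO, where it called 2.89% of genes as lower, and 8 lower in bleomycin WT, where it called 2.43%. In the 10 libraries edgeR called S100a8, S100a9 and Retnlg lower in bleomycin KO, the comparison in which Socs3 was called, where 0.266% of genes were called as lower, and S100a9 lower in bleomycin WT, where 0.144% were. The 9 epithelial markers, led by Sftpc and Scgb1a1, summed to 175 to 653 CPM in bleomycin KO, 268 to 874 in bleomycin WT and 1475 to 2348 in saline WT. Of the 9, 2 had a log2 fold change above 0 and 7 below 0 in each comparison with saline WT. At an unadjusted p under 0.05 (edgeR), 1 was higher and 4 lower in bleomycin WT, where 8.47% and 6.19% of all genes were. In bleomycin KO 0 were higher and 4 lower, beside 2.96% and 6.07% of all genes. Sftpc, a surfactant protein of alveolar type II cells, was called lower in bleomycin KO by edgeR in the 10 libraries and by DESeq2, which also called Sftpa1 lower in bleomycin KO and Sftpc lower in bleomycin WT. Among the macrophage markers, Fcgr1, a high-affinity receptor for IgG, was called higher in both comparisons with saline WT by edgeR in the 10 libraries, and Cx3cr1 lower in bleomycin WT by DESeq2. The 12 immediate early and stress genes, led by Junb and Dusp1, which cell dissociation is known to induce, summed to 11356 to 15808 CPM in bleomycin KO, 9443 to 17787 in bleomycin WT and 6118 to 14980 in saline WT. Their median log2 fold change was -0.03 for bleomycin WT against saline WT and 0.18 for bleomycin KO against saline WT, and 0 of 12 passed the edgeR test in either. In bulk RNA, fewer cells of a type and less RNA per cell cannot be told apart.

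Markers of the other cells a sort could carry were also measured. The 14 T and NK cell markers, led by Lck and Cd2, summed to 339 to 746 CPM in bleomycin KO, 369 to 1192 in bleomycin WT and 54.0 to 613 in saline WT. For the 8 B cell markers, led by Ighm and Cd22, the sums were 421 to 772, 261 to 1096 and 195 to 1753 CPM in the same groups. The 8 dendritic cell markers, led by Ccr7 and Cd209a, gave 386 to 473, 273 to 468 and 10.8 to 972 CPM, and the 10 endothelial and fibroblast markers, led by Col3a1 and Calcrl, gave 162 to 582, 259 to 908 and 119 to 358 CPM. The lowest saline WT value of each of these 4 lists is that of saline WT 2, where 12 of 14, 4 of 8, 7 of 8 and 8 of 10 of the markers were at 0. Bleomycin WT 4 alone gave the highest bleomycin WT sums of T and NK cell, B cell, and endothelial and fibroblast markers (1192, 1096 and 908 CPM). That library also had its group's highest epithelial sum, 874 CPM, and its lowest neutrophil and macrophage sums, 569 and 28677 CPM.

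Cish (ENSMUSG00000032578, chr9:107296026-107302784, plus strand), an inhibitor that STAT5 is best known to induce and that binds cytokine receptors, had 119, 65.9, 64.8 and 77.5 CPM in bleomycin KO, against 71.9, 156, 37.9 and 218 CPM in bleomycin WT and 20.2, 54.0, 36.3 and 48.4 CPM in saline WT. All bleomycin KO libraries were above all saline WT libraries, as for 8.17% of all genes. Bleomycin WT 3 lay among the saline WT libraries, and the 54.0 CPM of saline WT 2 are 5 counts. The log2 fold change was 1.66 for bleomycin WT against saline WT (SE 0.60, 95% interval 0.38 to 2.94, unadjusted p = 0.01402, adjusted p = 0.2541) and 1.10 for bleomycin KO against saline WT (adjusted p = 0.6272; edgeR). In the 10 libraries these values were 1.32 (adjusted p = 0.283) and 1.21 (adjusted p = 0.2391; edgeR). Between the genotypes it was -0.56, with an interval of -1.77 to 0.64, and -0.10 in the 10 libraries. Cish overlaps Gm17041 and Gm17040 on the opposite strand, which have 1844 and 463 counts against 10126 for Cish, and these reads cannot be told apart by strand.

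Socs1 (ENSMUSG00000038037, chr16:10782240-10785536, minus strand), which inhibits Janus kinases directly and restrains interferon and interleukin-4 signals, was the least abundant member. It had 14.9, 8.57, 16.4 and 16 CPM in bleomycin KO, against 20.4, 14.8, 12.5 and 0.533 CPM in bleomycin WT and 18.2, 0, 14.1 and 14.2 CPM in saline WT. Leaving aside bleomycin WT 4, with 3 counts, and saline WT 2, with 0, the libraries lay between 8.57 and 20.4 CPM in all 3 groups. Its log2 fold change was -0.15 for bleomycin WT against saline WT and 0.06 for bleomycin KO against saline WT (adjusted p = 0.9583 and 0.9921, edgeR), and the sign of the second turns under RLE scaling.

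The balance of the inhibitors was read within libraries as well. The ratio of Socs3 to Socs1 counts per kb was 25.9, 30.3, 13.6 and 13.4 in bleomycin KO, 11.2, 24.5, 20.2 and 276 in bleomycin WT and 5.31, 5.96 and 8.56 in saline WT 1, 3 and 4. All 8 bleomycin libraries were above the 3 saline libraries that have a ratio, and the value of 276 rests on 3 Socs1 counts. The ratio uses the same Socs3 counts as the separation given above, so it is not a separate result. It is a description with no test, and no share over other gene pairs was computed. Mean log2 ratios were 4.28 ± 0.62 in bleomycin KO (n = 4), 5.14 ± 2.04 in bleomycin WT (n = 4) and 2.69 ± 0.36 in saline WT (n = 3). Socs3 averaged 222 CPM per kb in bleomycin KO, 203 in bleomycin WT and 71.6 in saline WT, Cish 22.4, 33.1 and 10.9, and Socs1 11.4, 9.87 and 9.55. Socs3 was above Cish and Socs1 in all 12 libraries, and Cish was above Socs1 in all 8 bleomycin libraries and in 2 of 4 saline WT libraries.

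**Figure D2:**
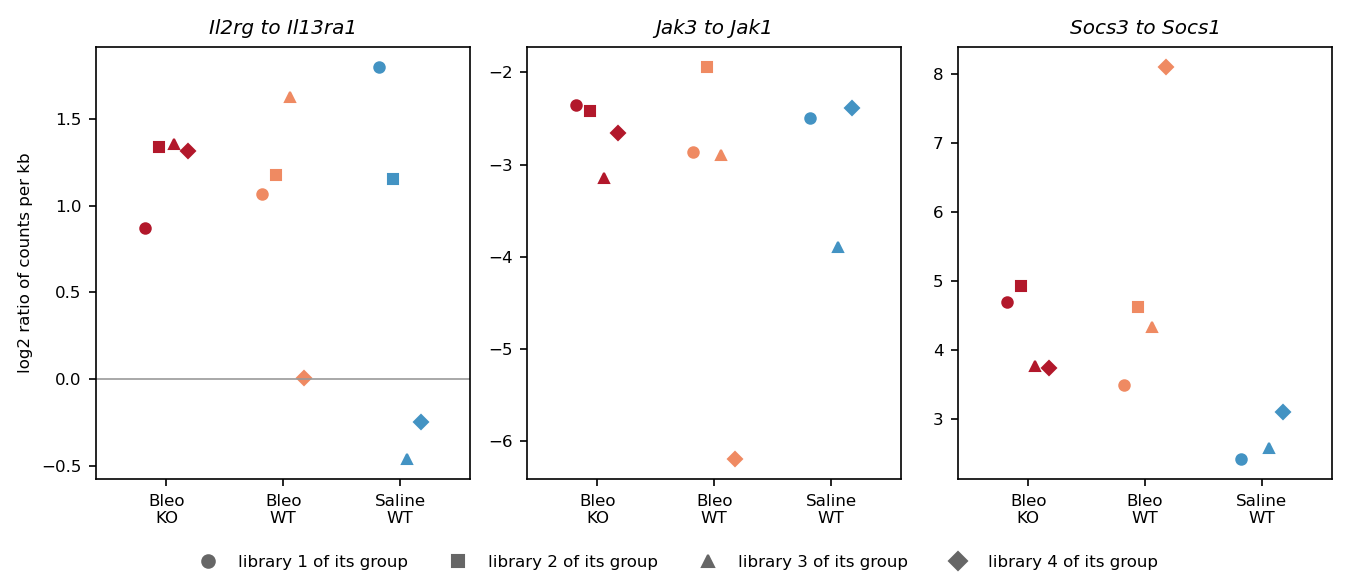
Within-library log2 ratio of counts per kb of exon (vertical axis) for Il2rg to Il13ra1, Jak3 to Jak1 and Socs3 to Socs1, 1 point per library, in bleomycin KO, bleomycin WT and saline WT from left to right. Saline WT 2 has no Jak3 or Socs1 count and is absent from those panels. The Socs3 to Socs1 ratios of the 8 bleomycin libraries lie above those of the 3 saline libraries, while the other 2 ratios overlap. The ratios were not tested.

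**Figure D3:**
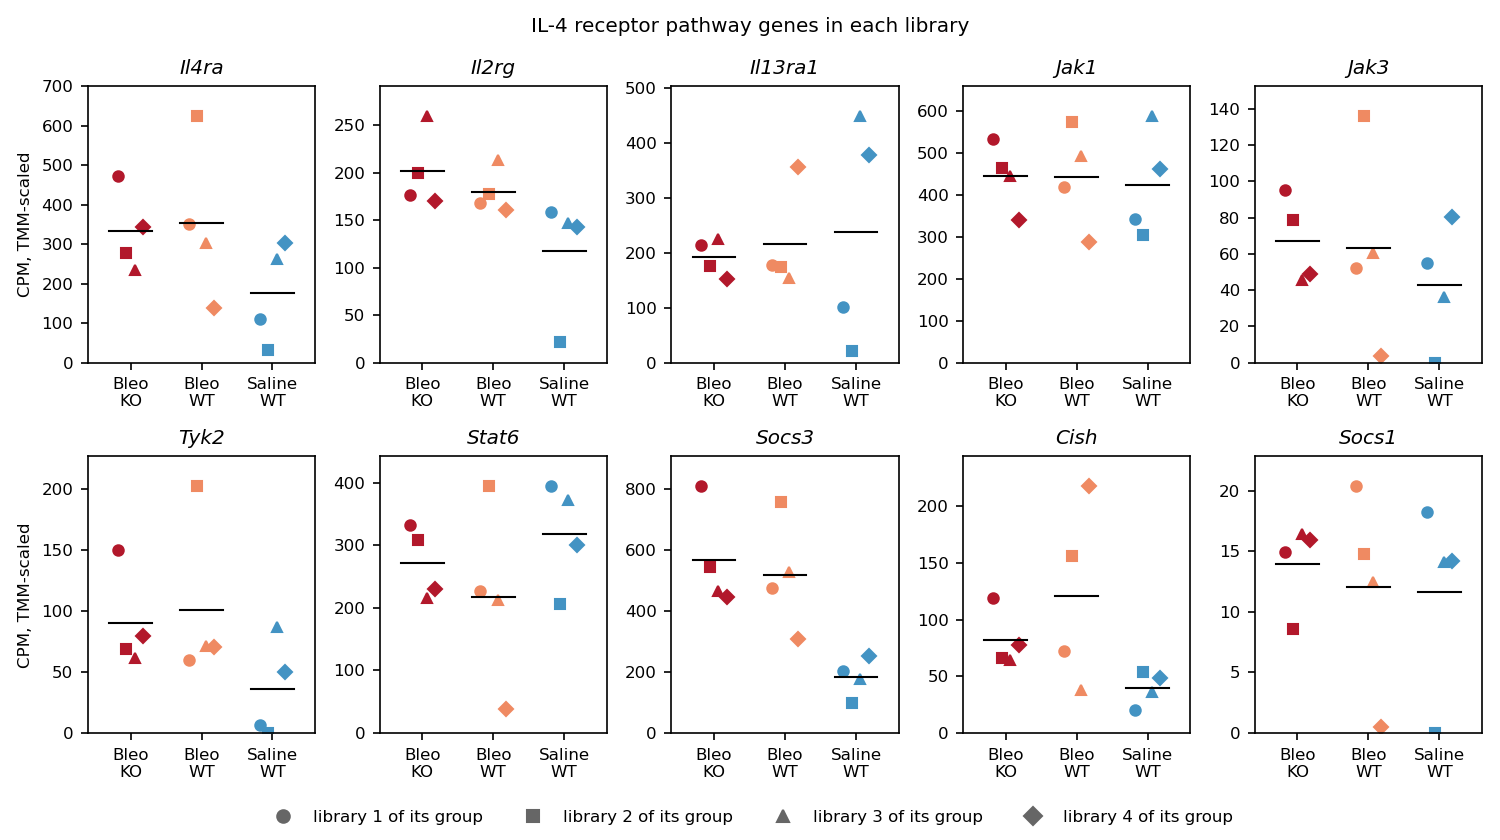
TMM-scaled CPM (vertical axis, linear, starting at 0) of the 10 genes in each library, with bleomycin KO, bleomycin WT and saline WT from left to right, symbols for the library number and a line at the group mean. For Socs3 all bleomycin points, 308 to 810.0 CPM, lie above the saline points, 97.3 to 254 CPM, and for Il4ra the bleomycin KO points lie within the range of bleomycin WT.

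Read as a set, 0 of 10 members passed the edgeR test in any of the 3 comparisons of 12 libraries. The background was also low: 0.024% of 16679 genes were called for bleomycin WT against saline WT, 0.018% for bleomycin KO against saline WT and 0% for bleomycin KO against bleomycin WT. At an unadjusted p under 0.05 there were 2 members higher in bleomycin WT than in saline WT, Socs3 and Cish, where 8.47% of all genes were. Bleomycin KO against saline WT had 1, Socs3, where 2.96% of all genes were higher, and bleomycin KO against bleomycin WT had 0, where 3.88% of all genes passed in either direction. limma-voom called 0 members in each comparison, and DESeq2 called Socs3 for bleomycin KO against saline WT and 0 members otherwise, where it called 0.877% of genes as higher for bleomycin WT against saline WT and 0.00253% as lower for bleomycin KO against bleomycin WT.

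Overlap between libraries was counted too. Il2rg and Socs3 had every bleomycin WT library above every saline WT library, as did 4.93% of all genes. Il2rg, Socs3 and Cish had every bleomycin KO library above every saline WT library, as did 8.17% of all genes. For bleomycin KO against bleomycin WT all 10 members overlapped, and 1.5% of all genes did not. The median log2 fold change of the members was 0.50 for bleomycin WT against saline WT, 0.62 for bleomycin KO against saline WT and 0.05 for bleomycin KO against bleomycin WT, beside 0.08, 0.04 and -0.01 for all genes tested.

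**Figure D4:**
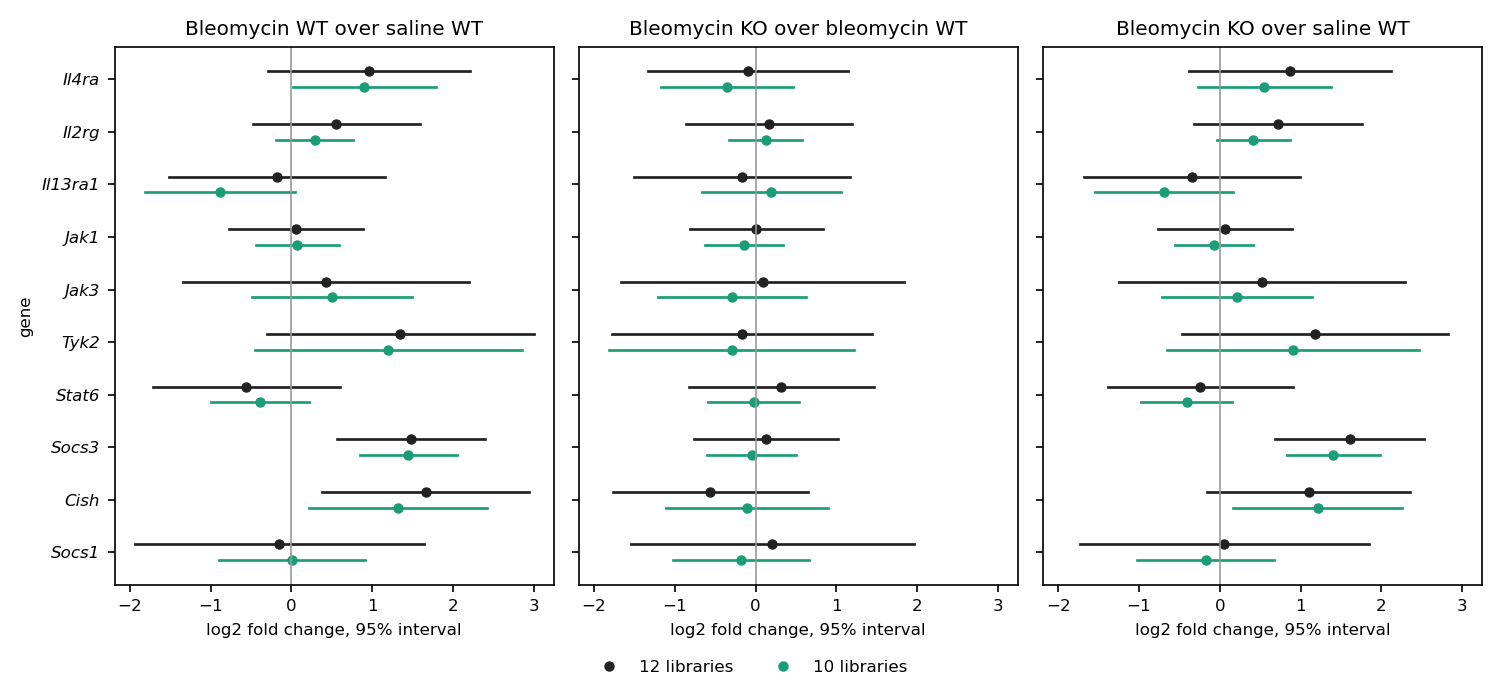
Log2 fold change (horizontal axis) of each member with its 95% interval from the edgeR fit, for all 12 libraries (black) and for the 10 without saline WT 2 and bleomycin WT 4 (green), in 3 panels for bleomycin WT over saline WT, bleomycin KO over bleomycin WT and bleomycin KO over saline WT. The Socs3 intervals exclude 0 in both comparisons with saline WT (0.56 to 2.40 and 0.69 to 2.53 in 12 libraries), and every interval of bleomycin KO over bleomycin WT spans 0. For bleomycin WT over saline WT, Cish also excludes 0 in 12 libraries (0.38 to 2.94) and in the 10, and Il4ra in the 10 (0.02 to 1.79). For bleomycin KO over saline WT, Cish excludes 0 in the 10 (0.17 to 2.26). The intervals are not adjusted for the number of genes tested.

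The ligands were nearly absent from these libraries. Il4 had 2, 16, 3 and 0 counts in bleomycin KO, against 14, 4, 2 and 0 in bleomycin WT and 3, 0, 14 and 1 in saline WT. Il13 had 6 counts in bleomycin KO 3 and 3 counts in bleomycin WT 1 and was at 0 elsewhere. Il13ra2, the decoy receptor of interleukin-13, had 4 counts in bleomycin KO and 2 in bleomycin WT over all libraries and 0 in saline WT. These 3 genes failed the filter on low counts and were not tested with edgeR.

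Of the 28 other pathway genes listed (ligands, Jak2, adaptors, phosphatases, further SOCS and PIAS proteins and cofactors), the 25 tested by edgeR and by limma-voom gave 0 calls in each comparison (0.2274 was the smallest adjusted p of edgeR). DESeq2 gave an adjusted p to 24 of the 28 in each comparison with saline WT and to 27 between the genotypes, and called 0. At an unadjusted p under 0.05 (edgeR), 6 were higher in bleomycin WT than in saline WT, where 8.47% of all genes were, and 3 were higher in bleomycin KO than in saline WT, where 2.96% were. In bleomycin KO against bleomycin WT 1 was lower, where 3.69% of all genes were. The medians of their log2 fold changes were 0.64, 0.43 and -0.19 in that order of comparisons.

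Dok2, an adaptor that dampens receptor tyrosine kinase signals, had the smallest p in the first. Its level was 199, 163, 154 and 181 CPM in bleomycin KO, against 221, 283, 149 and 341 CPM in bleomycin WT and 98.3, 0, 37.4 and 97.0 CPM in saline WT. All bleomycin libraries were above all saline libraries, at log2 fold changes of 1.98 for bleomycin WT against saline WT (adjusted p = 0.2274) and 1.47 for bleomycin KO against saline WT (adjusted p = 0.5055; edgeR). Of the 25 tested, 2 had every bleomycin WT library above every saline WT library, as did 4.93% of all genes. For bleomycin KO it was 4 of the 25, beside 8.17% of all genes. Jak2 came next in the first, at a log2 fold change of 1.70 (adjusted p = 0.2716, edgeR), with the dependence on bleomycin WT 4 described above.

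Socs6, a further SOCS protein, had 46.8, 34.8, 33.7 and 55.6 CPM in bleomycin KO, against 34.2, 56.5, 38.5 and 16.3 CPM in bleomycin WT and 17.5, 0, 15.5 and 9.12 CPM in saline WT. Every bleomycin KO library was above every saline WT library, at a log2 fold change of 1.78 (adjusted p = 0.4236, edgeR). Rnf128, a ubiquitin ligase also called GRAIL, likewise had no overlap, with 93.2 to 132 CPM in bleomycin KO and 0 to 46.2 CPM in saline WT, a log2 fold change of 2.56 (adjusted p = 0.487, edgeR). In the shallow saline WT 2, Dok2, Socs6 and Rnf128 were each at 0 counts, which allows a level of up to 32.4 CPM. The pair with the smallest p between the genotypes was Crebbp, a coactivator of STAT6, and Jak2, at log2 fold changes of -2.76 and -1.05 (adjusted p = 0.9633 and 0.9998, edgeR). Crebbp had 17.8 to 44.3 CPM in bleomycin KO and 19.2 to 46.6 CPM in bleomycin WT 1 to 3, and 714 CPM in bleomycin WT 4, so that the estimate rests on that library.

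The 6 other STAT genes gave 0 calls by edgeR, DESeq2 or limma-voom and 0 at an unadjusted p under 0.05 in all 3 comparisons. Stat3, the most abundant, had 536, 352, 266 and 288 CPM in bleomycin KO, against 309, 640.4, 246 and 114 CPM in bleomycin WT and 212, 0, 606 and 500.4 CPM in saline WT. Its groups overlapped, and the log2 fold change was -0.04 for bleomycin WT against saline WT and 0.10 for bleomycin KO against saline WT.

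Among the 6 receptors that pair with the common gamma chain, 0 passed the edgeR test in 12 libraries. In each comparison with saline WT, 1 gene was higher at an unadjusted p under 0.05, where 8.47% (WT) and 2.96% (KO) of genes were. That gene was Il7r, the interleukin-7 receptor alpha chain, with 135, 144, 179.6 and 178 CPM in bleomycin KO, against 129, 100.3, 159 and 146 CPM in bleomycin WT and 34.8, 21.6, 38.8 and 29.5 CPM in saline WT. All bleomycin libraries were above all saline libraries, at log2 fold changes of 2.29 for bleomycin KO against saline WT (adjusted p = 0.1706) and 2.04 for bleomycin WT against saline WT (adjusted p = 0.1616; edgeR). Among all genes, 8.17% had every bleomycin KO library above every saline WT library, and 4.93% every bleomycin WT library. DESeq2 on 12 libraries and edgeR on the 10 libraries called Il7r higher in both comparisons. For bleomycin KO these called 0.487% and 0.377% of genes as higher, and for bleomycin WT 0.877% and 0.287%. With limma-voom Il7r was called in neither comparison. Il21r, the interleukin-21 receptor, overlapped in all 3 comparisons, at a log2 fold change of 0.40 for bleomycin KO against saline WT and 0.08 for bleomycin WT against saline WT.

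The genes whose profile was most like that of a member were found over the 11 libraries other than saline WT 2, by the smallest root mean square difference of centred log2(CPM + 1) among 9290 genes of at least 10 CPM. For Il4ra they were Actn4, Pnpla7 and Bap1, at 0.21, 0.22 and 0.23, where the median gene was at 0.96. For Stat6 they were Pcyox1, Prr14 and Akap8l, at 0.18, 0.19 and 0.20, against a median of 1.16. Socs3 had less close neighbours, Alas1, Fnip2 and Slc35f6 at 0.25, 0.30 and 0.30, against a median of 1.01. These likenesses describe 11 libraries that share a treatment split and the divergent library bleomycin WT 4.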

How the data were processed

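Per the labels' protocols, RNA was amplified with the SMART-Seq v4 kit, which does not mark strand, and made into Nextera XT libraries. Per the submitters' processing notes, GSNAP, Partek and limma were used with GRCm38 and mm10; no versions are named there. The authors deposited whole-number counts per Ensembl gene for 12 libraries, with a gene table of symbols and exonic sizes; 11872 of 52636 genes had no count. The handling of multi-mapped reads is not stated in the labels.

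Counts were tested with edgeR 4.0.16 (R 4.3.3): filterByExpr by group, TMM scaling, robust quasi-likelihood fits of all 12 libraries with a group term alone, and a threshold of 0.05 on p adjusted by Benjamini-Hochberg over all genes. SEs were derived from the F statistic of each log2 fold change. Alternatives were RLE scaling, no filter, DESeq2 1.42.0, limma-voom 3.58.1, a replicate block, only the groups compared, 10 libraries, and each library left out. The limit given at 0 counts covers counting error alone, as PCR duplicates are not separate molecules. No pair of libraries within a group agreed within sampling noise (lowest chi-square per degree of freedom 23.9).

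The members and the 11 other lists were chosen with earlier results of these data known. The genes named are all members; Il4, Il13, Il13ra2, Jak2 and the 2 smallest p in each comparison among the other pathway genes; the 2 most abundant of each other list; and the 3 genes most like Il4ra, Stat6 and Socs3. A gene that this rule selects is not reported here. Cx3cr1, Fcgr1, Mertk, Ly6g, Retnlg and Sftpa1 were named after their values were seen. Promoter sequences are from RefSeq (GRCm38.p6), matched by symbol for 10 of 10 members; gene coordinates are from GENCODE vM21 (GRCm38).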

Additional observations from a re-analysis of the deposited data

Results flagged for a closer look

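In 3 of 30 gene and group combinations, the highest or lowest of the 4 libraries stood apart from the other 3 by more than Dixon's 95% critical value of 0.829 of the group's range; chance alone flags about 1 in 20 groups. Il13ra1 was at 355 CPM in bleomycin WT 4, against 154 to 178 CPM in the other bleomycin WT libraries. Il2rg was at 21.6 CPM in saline WT 2, which is 2 counts, against 143 to 159 CPM in the other saline WT libraries. Tyk2 was at 202 CPM in bleomycin WT 2, against 59.6 to 71.0 CPM in the other bleomycin WT libraries. Of these 3 libraries, saline WT 2 and bleomycin WT 4 are the 2 left out of the 10-library fit.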

How the results depend on the processing

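Of 570 member values under the alternatives, 520 kept their direction and their side of the threshold, 48 changed sign, 0 lost a call and 2 gained one: Socs3 in bleomycin KO against saline WT, at 1.41 with DESeq2 and 1.41 in the 10 libraries. Under RLE scaling, which moved the median log2 fold change of all genes by -0.18 for bleomycin WT and -0.16 for bleomycin KO against saline WT, Jak1 was at -0.12 and -0.10 and Socs1 in bleomycin KO at -0.12. With DESeq2 the same 3 values were -0.13, -0.11 and -0.13, and with limma-voom -0.022, -0.019 and -0.083, with Jak3 in bleomycin WT against saline WT at -0.19. In the 10 libraries, bleomycin KO against bleomycin WT gave 0.19 for Il13ra1, -0.15 for Jak1, -0.30 for Jak3, -0.023 for Stat6, -0.18 for Socs1, -0.045 for Socs3 and -0.33 for the Il4ra difference of mean log2 CPM (exact permutation p = 0.4). There bleomycin KO against saline WT gave -0.073 for Jak1 and -0.17 for Socs1, and bleomycin WT against saline WT 0.0075 for Socs1. None of the sign changes concerned a value past the threshold, and the cause was not tested.

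With 1 library left out at a time, bleomycin KO against bleomycin WT ranged from -0.38 to 0.34 for Il4ra (-0.35 to 0.40 for its difference of mean log2 CPM), -0.29 to 0.17 for Il13ra1, -0.17 to 0.16 for Jak1, -0.33 to 0.79 for Jak3, -0.54 to 0.44 for Tyk2, -0.050 to 0.77 for Stat6, -0.19 to 0.57 for Socs1 and -0.11 to 0.38 for Socs3. Bleomycin WT against saline WT ranged from -0.46 to 0.42 for Il13ra1, -0.064 to 0.38 for Jak1, -0.22 to 0.89 for Jak3 and -0.47 to 0.29 for Socs1. Bleomycin KO against saline WT ranged from -0.62 to 0.26 for Il13ra1, -0.014 to 0.38 for Jak1 and -0.067 to 0.28 for Socs1, and Socs3 from 1.42 to 1.82.

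Over all genes, the calls numbered 4 (bleomycin WT against saline WT), 0 (bleomycin KO against bleomycin WT) and 3 (bleomycin KO against saline WT). In that order they were 1, 0 and 1 under RLE scaling, 780, 243 and 694 with no filter on low counts, 588, 1 and 653 with DESeq2, 6, 0 and 12 with limma-voom, 0, 0 and 1 with only the 2 groups compared, and 81, 0 and 121 in the 10 libraries. Leaving out 1 library gave 1 to 11, 0 to 0 and 0 to 18 calls, the highest counts, 11 and 18, being those without bleomycin WT 4, and 10 for bleomycin KO against saline WT without saline WT 2. Every library but bleomycin WT 1 moved the first of these 3 counts by over 1.5 times, and every library but bleomycin WT 3 moved the last.

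No pairing of the libraries by replicate number was visible: deviations of same-numbered libraries from their group means correlated at -0.20 to 0.07 over 12 pairs, with 0 above 0.1. Of 36 pairs with different numbers, 7 were above 0.1, the highest at 0.41 for bleomycin WT 2 with bleomycin KO 1. These 2 libraries also had the same highest Spearman correlation with any other library, 0.986, and what they share was not tested. With the replicate number as a block the counts were 2, 0 and 1, and Il13ra1 turned to 0.15 in bleomycin WT and 0.074 in bleomycin KO against saline WT. Depth limits saline WT 2, where 3 counts make 32.4 CPM.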
